A study of Macaca fascicularis with 6 samples.

Results

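The alarmin axis of the airway was followed through single-cell transcriptomes of cynomolgus monkey lung. It comprises the ligands IL33, TSLP and IL25 and the receptor chains IL1RL1, IL1RAP, CRLF2, IL7R and IL17RB, 8 genes chosen by name. Of the 28623 genes listed for each library, 7 of the 8 members had exactly 1 row under their symbol, and CRLF2, the private chain of the TSLP receptor, was not analysed here. The 7 rows were IL33 (ENSMFAG00000036876), TSLP (ENSMFAG00000002132), IL25 (ENSMFAG00000002200), IL1RL1 (ENSMFAG00000007059), IL1RAP (ENSMFAG00000039646), IL7R (ENSMFAG00000040996) and IL17RB (ENSMFAG00000001616). In the order of RefSeq genes on the cynomolgus assembly T2T-MFA8v1.1, IL1RL1 lay between IL1RL2 and IL18R1, IL33 between TPD52L3 and RANBP6, and TSLP between SLC25A46 and WDR36. IL25 lay between EFS and CMTM5, IL1RAP between GMNC and TMEM207, IL7R between SPEF2 and CAPSL, and IL17RB between CHDH and ACTR8.

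Alarmins are cytokines that barrier cells release on damage or allergen contact. IL-33 is a nuclear IL-1 family cytokine sensed by IL1RL1 (ST2) paired with IL1RAP, which also serves the IL-1 and IL-36 receptors, TSLP binds CRLF2 paired with IL7R, which is also the IL-7 receptor, and IL-25, a product of tuft cells, binds IL17RB paired with IL17RA. Mast cells, group 2 innate lymphoid cells, type 2 helper T cells and tissue regulatory T cells are the classical cells that carry ST2.

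Lungs of 6 male monkeys aged 3 to 5 years gave 1 library each. Animals 1, 2 and 3 were controls, and animals 8, 10 and 11 had the asthma model. The asthma monkeys were sensitized with Ascaris suum antigen in adjuvant under the skin and then challenged with the antigen through the nose, and the control monkeys received saline. Lung tissue was digested with enzymes, red cells were lysed and dead cells were removed, so cell numbers also reflect what survived these steps. Transcripts were counted as unique molecular identifiers (UMIs) from their 3' ends. The counts are summed per gene, which does not separate soluble from membrane-bound forms of IL1RL1 or IL1RAP.

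The files held 35133 barcodes, of which 24235 passed the study's limits on genes, UMIs and mitochondrial transcripts and are the cells used below. These are fewer than the cells the study states it retained. The controls kept 4339, 3200 and 3902 cells and the asthma libraries 4136, 4620 and 4038, with median UMIs per cell between 3835 and 5048.5. Barcodes found in more than 1 library numbered 137, or 75 among retained cells. Levels are given in CPM, the UMIs of a gene scaled to all UMIs summed over the cells of a type in a library, with the SD over libraries that held at least 10 such cells. Intervals on pooled counts or shares are exact 95% intervals that cover counting error only.

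Cells were clustered without the members and named from marker genes. The classes were T and NK cells (10168), macrophages (3473), stromal cells (2303), granulocytes (1638), monocytes (1566), epithelial cells (916), B cells (872), mesothelial cells (619), dendritic cells (535), plasma cells (117) and mast cells (62). A further 1486 cells lay in clusters with markers of several classes and 480 were unnamed. Neither tuft cells nor group 2 innate lymphoid cells formed a cluster. Of the 916 epithelial cells none carried 3 or more of the tuft markers, which were found in 0 (GFI1B) to 45 (AVIL) cells each. Of the 10168 T and NK cells 112 (1.10%) carried 3 or more of the markers of group 2 innate lymphoid cells. GATA3 was found in 2249 of them, KLRG1 in 1780 and RORA in 1298, genes that T and NK cells also use, against 81 with IL9R, 63 with KIT, 25 with HPGDS and 2 with PTGDR2. Single group 2 innate lymphoid cells may therefore be present, and these counts do not exclude single tuft cells.

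The name epithelial alarmin held only in part. Epithelial cells held 63.9% of the 7331 IL33 UMIs pooled over libraries, of which control 3 supplied 3390, 4 of the 11 IL25 UMIs and none of the 126 TSLP UMIs. By library the epithelial share of IL33 ran from 27.0% to 79.7%, and stromal cells held more than epithelial cells in control 2 (38.9% against 27.0%) and asthma 11 (44.2% against 41.8%). Counts set the precision of each gene, since TSLP was seen in 109 cells, IL1RL1 in 59 (78 UMIs), IL17RB in 47 (51 UMIs) and IL25 in 11. IL33 was found in 1247 cells (5.15%), IL1RAP in 3578 cells (14.8%, 5797 UMIs) and IL7R in 4333 cells (17.9%, 10905 UMIs).

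**Figure D1:**
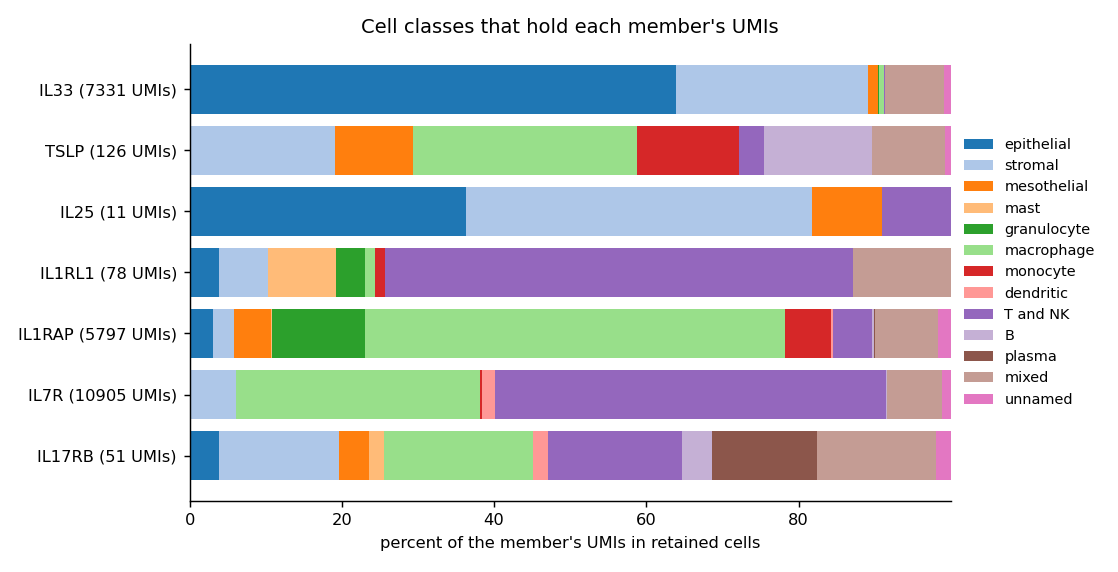
Stacked bars give, for each of the 7 genes, the percent of its UMIs in retained cells (x axis) that fell in each cell class. Libraries are pooled, and the number of UMIs stands beside the name. Epithelial and stromal cells held most of the IL33 bar, macrophages most of the IL1RAP bar (55.1%), and T and NK cells 51.3% of the IL7R bar and 61.5% of the IL1RL1 bar.

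IL33 was most abundant in basal cells, the progenitors of the airway epithelium. These 156 cells carried the basal markers KRT5 (mean 3624 CPM), KRT15 (4344 CPM) and TP63 (364 CPM), and IL33 was present in 155 of them (99.4%, interval 96.5 to 100). The basal IL33 level was 4565 CPM in control 1, 2817 in control 3, 3415 in asthma 8, 2603 in asthma 10 and 1928 in asthma 11. Control 2, with 3 basal cells, had 2689 CPM. The 2 groups overlapped, and the mean of the 5 libraries with at least 10 basal cells was 3066 ± 993 CPM (SD, n = 5).

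The median basal cell that carried it had 25 IL33 UMIs and the richest had 87. After each cell was thinned to 1000 UMIs, 88.5% of basal cells still had an IL33 UMI. Basal cells had a median of 8843 UMIs. Among blood-derived classes, IL33 was found in 14 of 10168 T and NK cells (0.138%, median 3659 UMIs), 39 of 3473 macrophages (1.12%, median 18259 UMIs) and 0 of 872 B cells (median 4199.5 UMIs), which allows up to 0.739 CPM in B cells. Of the 155 IL33-positive basal cells, 154 also carried KRT5.

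The rest of the airway and alveolar epithelium had far lower IL33 levels. The SCGB3A2 sub-cluster, cells led by a secretoglobin of distal airways, had 103.9 ± 51.3 CPM (n = 4). Alveolar type 2 cells, which make surfactant, had 49.0, 20.5 and 98.7 CPM in the controls and 28.8, 36.9 and 33.4 CPM in the asthma libraries. These 6 libraries averaged 44.5 ± 28.1 CPM and the groups overlapped. Alveolar type 1 cells, the flat gas-exchange cells, had 9.27 ± 10.98 CPM (n = 4). The 18 club and secretory cells held 65 IL33 UMIs, 61 of them in control cells and 55 of these in control 3, and the 17 ciliated cells had a pooled 94.6 CPM.

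**Figure D2:**
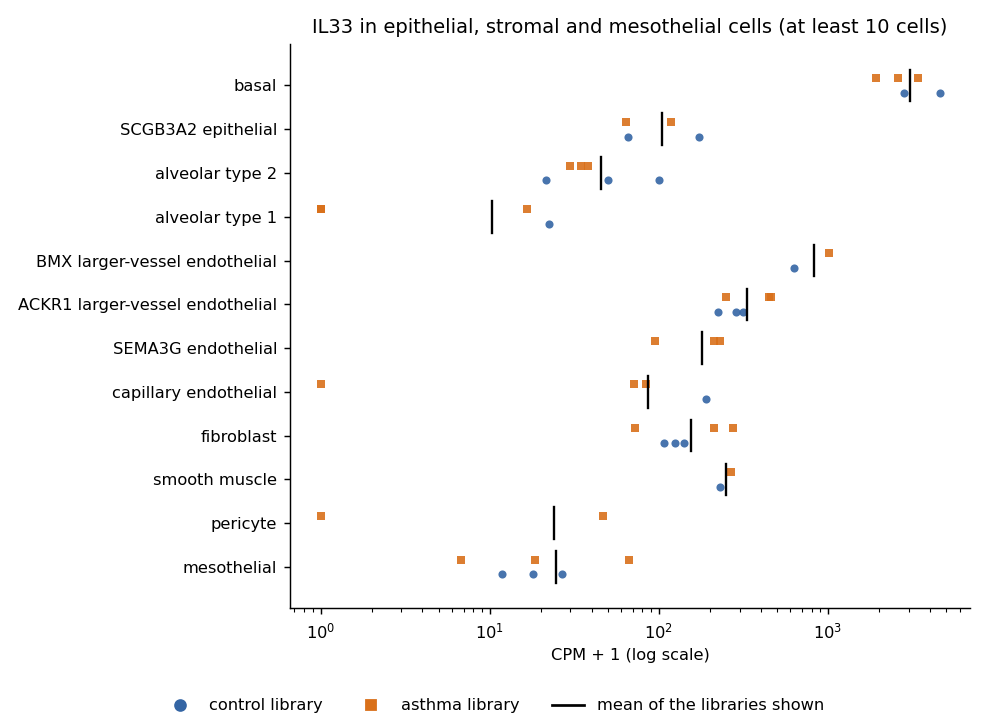
Each point is the IL33 level of 1 library (CPM + 1, log axis) in a sub-cluster of epithelial, stromal or mesothelial cells with at least 10 cells, with blue circles for control, orange squares for asthma and a black bar for the mean of the points. Basal cells lie above every other sub-cluster, and endothelial cells of larger vessels lead the stromal ones.

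Endothelial cells of larger vessels came next. Stromal cells held 25.2% of the IL33 UMIs, and 230 of the 295 larger-vessel endothelial cells carried it (78.0%). In those cells IL33 was 407, 384 and 593 CPM in the controls and 642, 437 and 499.7 CPM in the asthma libraries, so the groups overlapped around a mean of 494 ± 105 CPM. The 112 cells led by BMX, a kinase of arterial endothelium, reached 825 ± 272 CPM (n = 2), and the 183 cells led by ACKR1, the chemokine-binding receptor of venules, had 329 ± 101 CPM (n = 6).

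Other stromal cells held IL33 at lower levels. Smooth muscle cells had 248 ± 27.4 CPM (n = 2), and endothelial cells led by SEMA3G had 178 ± 73.3 CPM (n = 3). Fibroblasts had 106, 141 and 124 CPM in the controls and 212, 273 and 71.4 CPM in the asthma libraries, a mean of 154 ± 74.5 CPM with overlapping groups. Capillary endothelial cells had 85.6 ± 77.8 CPM (n = 4). Of the 684 stromal cells with an IL33 UMI, 388 carried the endothelial gene PECAM1 (56.7%), against 39.5% of stromal cells without one.

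Across whole classes IL33 ran from epithelial to stromal to mesothelial cells. The epithelial level exceeded the stromal level in 6 of 6 libraries, and the stromal level the mesothelial level in 6 of 6, by mean differences of 1.05 ± 0.87 and 2.76 ± 1.14 in log2(CPM + 10). Each gave p = 0.03125 in the exact sign-flip permutation test, the smallest that 6 libraries allow, and 0.125 after Benjamini-Hochberg adjustment over the neighbours in the order. No neighbours in the order of IL33 passed at adjusted p under 0.05. Mesothelial cells had a mean of 23.7 ± 21.6 CPM, and dendritic cells had no IL33 UMI.

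IL33 passed the test between asthma and control in no type of cell. Epithelial IL33 was 309, 338 and 1888 CPM in the controls and 346, 318 and 192 CPM in the asthma libraries, so control 3 stood far above the other 5. That library held 94 of the 156 basal cells, against 10 and 3 in the other controls and 12, 22 and 15 in the asthma libraries. In edgeR's quasi-likelihood test on summed counts the epithelial log2 fold change, asthma over control, was -1.58 ± 0.63 (SE, adjusted p = 0.656), and without control 3 it was -0.37. Without the basal cells it was -1.57 ± 0.48 (adjusted p = 0.611), a setting chosen after seeing the data. The remaining cells also differed in make-up, since alveolar type 1 cells were 25 of the 313 control and 244 of the 603 asthma epithelial cells. Within alveolar type 2 cells the log2 fold change was -0.61 ± 0.37 (adjusted p = 0.878) and within the SCGB3A2 sub-cluster -0.56 ± 0.49 (adjusted p = 0.9998).

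Over all cells IL33 was 20.9, 13.7 and 123 CPM in the controls and 36.0, 30.1 and 32.4 CPM in the asthma libraries. The edgeR log2 fold change was -0.76 ± 0.73 (adjusted p = 0.719) and turned to 0.71 without control 3 (adjusted p = 0.292). Within basal cells it was -0.46 ± 0.29 (adjusted p = 0.935) and within stromal cells -0.32 ± 0.31 (adjusted p = 0.618). The stromal cells had 178, 162 and 265 CPM in the controls and 253, 205 and 116 CPM in the asthma libraries, which overlapped.

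TSLP, the cytokine that primes dendritic cells, was rare and was not an epithelial transcript in these cells. None of the 916 epithelial cells had a TSLP UMI at a median of 8308 UMIs per cell, which allows at most 0.362 CPM. Its 126 UMIs, pooled over libraries, were spread over macrophages (29.4%), stromal cells (19.0%), B cells (14.3%), monocytes (13.5%) and mesothelial cells (10.3%). By library the macrophage share ran from 10.3% to 45.5% and the monocyte share from 0% to 43.5%, highest in asthma 11. T and NK cells, taken as background, had it in 4 of 10168 cells (0.0393%, median 3659 UMIs), and macrophages in 33 of 3473 (0.95%, median 18259 UMIs). After thinning to 1000 UMIs the macrophage share was 0.0288%.

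In endothelial cells of larger vessels TSLP was found in 15 of 295 cells (5.08%, interval 2.87 to 8.25, median 5266 UMIs). After thinning to 1000 UMIs the share was 0.345%, below that of pericytes (0.752%) and of the stromal cells led by SOSTDC1, TNC and ASPN (1.10%), so no order is read from these shares. The larger-vessel cells held 2, 2 and 8 TSLP UMIs in the controls and 3, 1 and 0 in the asthma libraries. The levels were 8.7, 19.2 and 13.4 CPM in the controls and 7.0, 4.4 and 0 CPM in the asthma libraries. Every control value lay above every asthma value, and the exact permutation test on both sides gave p = 0.1, the smallest that 3 against 3 libraries allow. TSLP was below the count filter there, and groups failed to overlap for 14.5% of the genes tested in these cells. These 16 UMIs are too few for more than a description.

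The stromal class as a whole had the same order for TSLP. The controls held 6.9, 2.5 and 4.2 CPM (5, 2 and 8 UMIs) and the asthma libraries 1.7, 1.5 and 1.3 CPM (3, 2 and 4 UMIs), again with exact permutation p = 0.1. Groups failed to overlap for 31.7% of the genes tested in stromal cells, so such an order was common there. Pooled over libraries, the interval was 2.45 to 7.23 CPM in control and 0.66 to 2.73 CPM in asthma cells. Of the 23 TSLP-positive stromal cells, 15 were larger-vessel endothelial cells, which made up 124 of 649 control and 171 of 1654 asthma stromal cells. By library the larger-vessel cells were 29, 14 and 81 of 147, 126 and 376 control stromal cells. In the asthma libraries they were 71, 44 and 56 of 372, 340 and 942. The part of this make-up in the class order was not tested. IL33 was also present in 11 of the 23 TSLP-positive cells.

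In the order of classes no neighbours passed the exact test for TSLP. B cells had 3.91 ± 3.94 CPM, stromal cells 3.01 ± 2.19 CPM and mesothelial cells 2.54 ± 4.74 CPM (n = 6 each). Over all cells TSLP was 0.956, 0.244 and 1.06 CPM in the controls and 0.696, 0.433 and 0.906 CPM in the asthma libraries, with an edgeR log2 fold change of -0.31 ± 0.57 (adjusted p = 0.854).

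IL25 amounted to 11 UMIs in 11 cells of the whole series. The libraries held 1, 1 and 6 UMIs in control and 1, 0 and 2 in asthma. Fibroblasts held 5 of the UMIs, epithelial cells 4, of which 3 were basal, and a mesothelial cell and a proliferating T or NK cell 1 each. The groups overlapped, and 6 of the 11 cells also carried IL33.

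**Figure D3:**
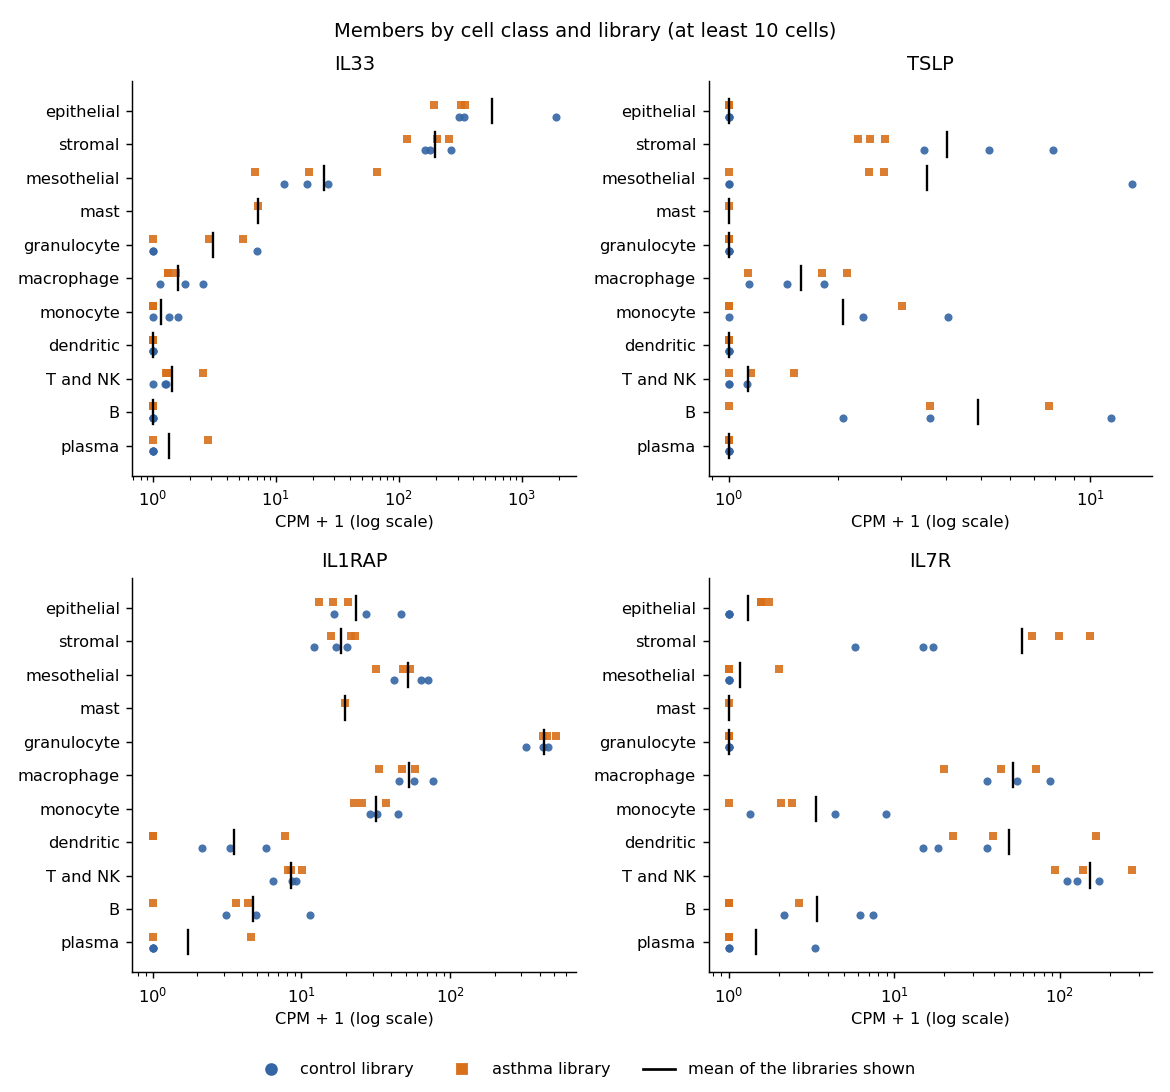
Points show the level of IL33, TSLP, IL1RAP and IL7R in each cell class (CPM + 1, log axis), 1 point per library with at least 10 cells, blue circles for control, orange squares for asthma and a black bar for the mean. Control and asthma points intermix in most rows, IL1RAP peaks in granulocytes, and in the stromal row of IL7R all 3 asthma points lie to the right of the controls.

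IL1RL1, the receptor chain that binds IL-33, was found in few cells. Regulatory T cells held 30 of its 78 UMIs although they numbered 69 of 24235 cells. IL1RL1 was found in 15 of these 69 cells (21.7%, interval 12.7 to 33.3, median 4003 UMIs), against 7 of 1624 CD4 T cells (0.431%, median 3939.5 UMIs) and 0 of 872 B cells. After thinning to 1000 UMIs 8.70% of regulatory T cells had it. Its UMIs in regulatory T cells were 10, 5 and 1 in the controls and 0, 12 and 2 in the asthma libraries, and the groups overlapped. The controls held 18, 10 and 6 regulatory T cells and the asthma libraries 5, 20 and 10. These counts are too few to order the libraries. The pooled level was 110.3 CPM in control (63.0 to 179) and 96.4 CPM in asthma (52.7 to 162), and these intervals overlapped.

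FOXP3, the transcription factor that defines regulatory T cells, was present in 12 of the 15 IL1RL1-positive regulatory T cells (80%) and in 59.3% of the 54 without IL1RL1. None of those 15 cells had an IL1RAP UMI, and of all 59 IL1RL1-positive cells 2 did. IL1RAP was found in 3.70% of the regulatory T cells without IL1RL1, so its absence beside IL1RL1 cannot be read at this depth.

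Mast cells came next for IL1RL1. They had it in 6 of 62 cells (9.68%, interval 3.63 to 19.9), a pooled 27.9 CPM, and all 6 carried GATA2, a transcription factor of mast cells. The 62 cells were well marked, with CPA3 at 10537 CPM, MS4A2 at 3127 and FCER1A at 3183 in the library that held at least 10 of them. That library was asthma 8, with 44 mast cells and 12.4 CPM of IL1RL1. The others held 1, 7, 1, 9 and 0 mast cells, so the groups could not be compared. Granulocytes had it in 3 of 1638 cells, and dendritic, mesothelial and plasma cells had no IL1RL1 UMI.

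**Figure D4:**
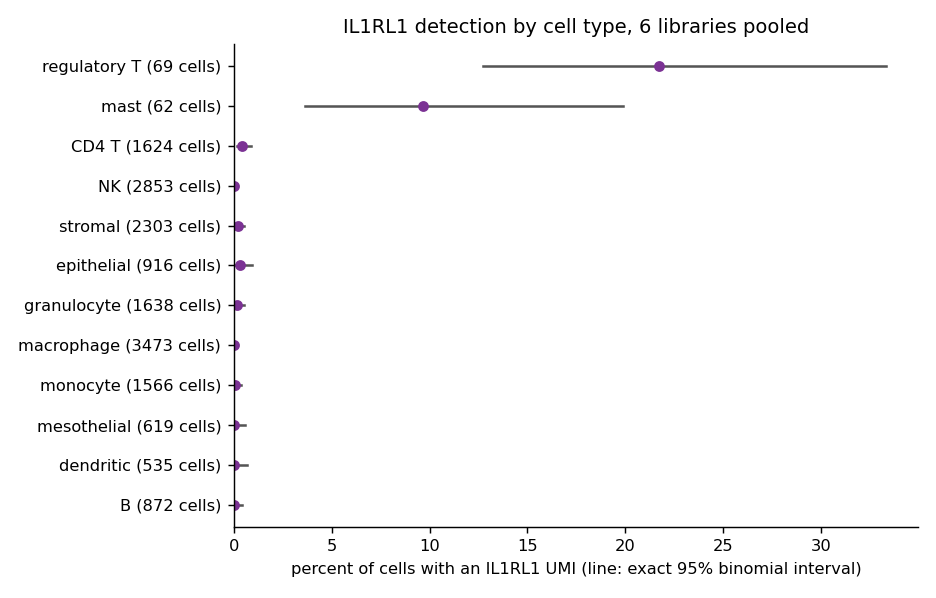
Points give the percent of cells with an IL1RL1 UMI (x axis) in the cell types drawn, all 6 libraries pooled, and lines the exact 95% binomial interval. Regulatory T cells (21.7%) and mast cells (9.68%) lie above all other types drawn. Among the remaining types, smooth muscle cells had the highest share, 1 of 71 cells (1.41%).

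Over all cells IL1RL1 had 13, 13 and 9 UMIs in the controls and 7, 28 and 8 in the asthma libraries. The groups overlapped, and the edgeR log2 fold change was 0.085 ± 0.60 (adjusted p = 0.970). In T and NK cells it was -0.086 ± 0.75 (adjusted p = 0.995).

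IL1RAP, the signalling partner of ST2, was highest in granulocytes. Their level was 451, 319 and 416 CPM in the controls and 416, 447 and 511 CPM in the asthma libraries, a mean of 427 ± 63.0 CPM with overlapping groups. It was found in 544 of the 1638 granulocytes (33.2%) although their median was only 1004 UMIs, and in 18 of 872 B cells (2.06%) at 4199.5 UMIs. Of the IL1RAP-positive granulocytes 92.5% carried CSF3R, the receptor for granulocyte colony-stimulating factor, and 25.4% carried IL1R2, the decoy receptor that also pairs with IL1RAP, against 88.4% and 24.2% of the granulocytes without IL1RAP.

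Macrophages held 55.1% of the IL1RAP UMIs at a much lower level. They had 56.4, 44.3 and 75.3 CPM in the controls and 46.4, 32.2 and 57.1 CPM in the asthma libraries, a mean of 52.0 ± 14.6 CPM. IL1RAP was found in 45.6% of macrophages at a median of 18259 UMIs, but in 4.81% once cells were thinned to 1000 UMIs, against 31.4% of granulocytes. Cells under 1000 UMIs were left out of this comparison, 803 of the 1638 granulocytes and 4 of the 3473 macrophages. Mesothelial cells had 50.6 ± 14.3 CPM, basal cells 44.7 ± 17.3 CPM (n = 5), monocytes 30.7 ± 7.92 CPM and epithelial cells 22.3 ± 12.3 CPM. Stromal cells (17.3 ± 4.05 CPM) and T and NK cells (7.48 ± 1.20 CPM) were lower still.

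In that order granulocytes exceeded macrophages in 6 of 6 libraries by 2.84 ± 0.37 in log2(CPM + 10), mesothelial cells exceeded monocytes in 6 of 6 by 0.56 ± 0.24, and stromal cells exceeded T and NK cells in 6 of 6 by 0.63 ± 0.26. Each had exact sign-flip p = 0.03125, the smallest possible, and adjusted p = 0.0833. None of these passed at adjusted p under 0.05, and macrophages against mesothelial cells had p = 0.906 in the same exact test.

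IL1RAP did not pass the test between groups in any class. Its edgeR log2 fold change was 0.23 ± 0.22 in granulocytes (adjusted p = 0.9996), -0.49 ± 0.23 in macrophages (adjusted p = 0.875) and -0.94 ± 0.39 in epithelial cells (adjusted p = 0.656). Epithelial IL1RAP was 15.4, 26.0 and 45.4 CPM in the controls and 12.1, 15.2 and 19.6 CPM in the asthma libraries, with overlapping groups, and the epithelial fold change ran from -1.26 to -0.42 with a library left out. Basal cells, of which 33.3% carried IL1RAP, were 107 of 313 control and 49 of 603 asthma epithelial cells, and control 3 alone held 94 of the 107. Alveolar type 1 cells, of which 1.86% carried IL1RAP, were 25 and 244. The part of this make-up in the epithelial IL1RAP values was not tested. Over all cells IL1RAP lay between 28.9 and 39.9 CPM in every library.

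IL7R, which serves both TSLP and IL-7, was highest in CD4 T cells. They had 587, 494 and 446 CPM in the controls and 482, 496 and 547 CPM in the asthma libraries, a mean of 508 ± 50.1 CPM with overlapping groups, and 67.7% of the 1624 cells carried it. NK cells, the low reference among lymphocytes, had 5.00 ± 3.25 CPM with 1.19% of cells positive at a like depth (medians of 3939.5 and 3729 UMIs). The T cells led by GZMK and CXCR6 had 266 ± 67.2 CPM and regulatory T cells 113 ± 66.4 CPM (n = 4). Granulocytes had no IL7R UMI in 1638 cells, which allows up to 1.76 CPM.

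A further T-cell sub-cluster of 517 cells was led by IGFBP2 and SOX4, with TCF7 and LEF1 among its leading genes. Its IL7R level was 207, 256 and 179 CPM in the controls and 36.8, 117 and 149 CPM in the asthma libraries, so that every control lay above every asthma library. The edgeR log2 fold change was -1.001 ± 0.32 (adjusted p = 0.567), so the difference was not called. Groups failed to overlap for 11.8% of the genes tested there.

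Myeloid cells also carried IL7R. Macrophages held 32.1% of its pooled UMIs. By library their share ran from 7.2% in asthma 11 to 43.2% in asthma 10, where T and NK cells held 37.1%. Macrophages had 53.8, 86.1 and 35.2 CPM in the controls and 43.3, 70.5 and 18.9 CPM in the asthma libraries, which overlapped. CD3D, CD3E or CD3G, subunits of the T-cell receptor complex, was found in 6.46% of the IL7R-positive macrophages and 5.14% of the others. The 34 mature dendritic cells, the migratory form, led here by CCL22, LAMP3 and FSCN1, had IL7R in 28 cells (82.4%) with a pooled 341 CPM (287 to 403). A CD3 UMI was found in 4 of these 28 cells (14.3%) and in 0 of the other 6, and the T and NK markers summed to 62.5 CPM in control and 1327 CPM in asthma mature cells (2432 CPM in asthma 8). Their part in the IL7R level was not tested. Their pooled level was 385 CPM in control (303 to 484) and 301 CPM in asthma cells (232 to 385), with overlapping intervals.

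Dendritic cells as a class had 35.3, 17.3 and 13.9 CPM of IL7R in the controls and 21.6, 165 and 38.3 CPM in the asthma libraries. The highest value was that of asthma 10, where 6 of 27 dendritic cells were mature and held 39 of the 49 UMIs. The edgeR log2 fold change was 1.58 ± 0.66 (adjusted p = 0.703) and fell to 0.38 without asthma 10.

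One member difference between asthma and control passed the test, and it was IL7R in stromal cells. The controls had 13.8, 16.1 and 4.8 CPM (10, 13 and 9 UMIs) and the asthma libraries 66.6, 152 and 97.6 CPM (117, 208 and 305 UMIs). All 3 asthma libraries lay above all 3 controls. The edgeR log2 fold change was 3.09 ± 0.47 (adjusted p = 0.0265). In the same fit 195 of 9526 genes were called (2.05%). The call was lost without control 1, control 2, control 3 or asthma 10, with adjusted p between 0.0556 and 0.119, while the fold change stayed between 2.51 and 3.50 whichever library was left out.

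The stromal IL7R lay in a pair of endothelial sub-clusters. Capillary endothelial cells, led by ACE, EDNRB and HPGD, held 312 of the 662 stromal IL7R UMIs, and the SEMA3G endothelial cells held 294. Of the capillary marker list, CA4 had a mean of 702 CPM in the capillary cells, GPIHBP1 3.68 CPM and BTNL9 0 CPM (n = 4). IL7R was present in 174 of 334 capillary cells (52.1%, median 2820.5 UMIs) and in 175 of 343 SEMA3G cells (51.0%, median 2422 UMIs). The other stromal cells outside the endothelium had 11 IL7R UMIs in 1290 cells, all of them in asthma 11.

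Nearly all cells of the pair came from asthma libraries. Capillary cells numbered 8, 13 and 6 in the controls and 99, 117 and 91 in the asthma libraries, and SEMA3G cells 4, 0 and 3 against 78, 71 and 187. Within each sub-cluster the control and asthma intervals overlapped. Pooled capillary cells had 245 CPM in control (127 to 429) and 313 CPM in asthma (278 to 350.2), and pooled SEMA3G cells 362 CPM in control (174 to 667) and 304 CPM in asthma (269.5 to 341). With both sub-clusters left out, IL7R fell below the count filter in stromal cells and was not tested, and the genes called dropped from 195 to 1. The loss of IL7R decides nothing, because the cells left out held most of its stromal UMIs. More of these cells in the lung and more of them released by digestion cannot be told apart.

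**Figure D5:**
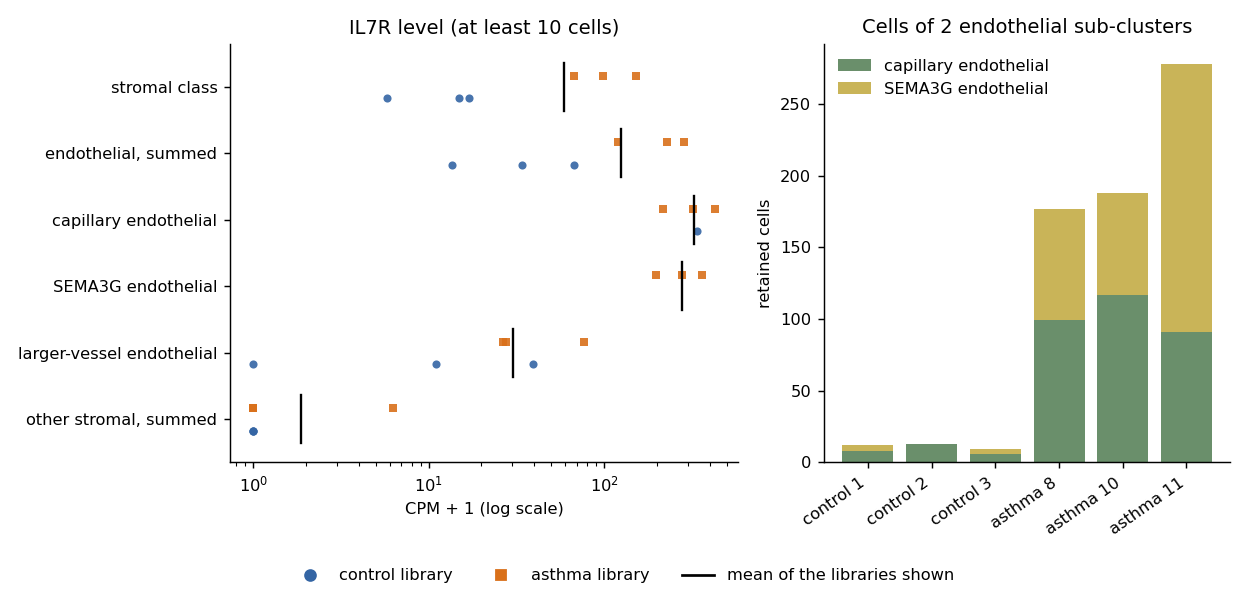
Left, the IL7R level of each library (CPM + 1, log axis) in the stromal class and its parts with at least 10 cells, blue circles for control, orange squares for asthma and a black bar for the mean. Right, stacked bars with the retained capillary and SEMA3G endothelial cells of each library, 9 to 13 in the controls and 177 to 278 in the asthma libraries.

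Few cells of this endothelial pair carried a CD3 transcript. Of the 349 IL7R-positive cells of the pair 6 had a CD3D, CD3E or CD3G UMI (1.72%), as did 6 of the 328 IL7R-negative ones (1.83%), while 348 carried PECAM1, CDH5 or VWF. The 9 T and NK markers found in the gene lists summed to 37.3, 79.2 and 207 CPM in the control stromal cells and 60.3, 87.0 and 45.8 CPM in the asthma ones, against 16673 CPM in pooled T and NK cells. In all endothelial sub-clusters summed these markers had 39.5, 61.3 and 378 CPM in the controls and 68.9, 85.5 and 46.5 CPM in the asthma libraries. GZMB was the most abundant of them in both sums, and none of the 9 was at 0 there. In capillary cells 1 of the 9 had no UMI. The part of T-cell RNA in the stromal IL7R values was not tested further.

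With all endothelial sub-clusters summed, a setting chosen after seeing the data, IL7R was 32.9, 66.4 and 12.7 CPM in the controls and 119, 228 and 285 CPM in the asthma libraries. The edgeR log2 fold change was 2.59 ± 0.50 (adjusted p = 0.0211), where 453 of 7732 genes were called (5.86%). It was not called without control 1, control 3, asthma 10 or asthma 11 (adjusted p between 0.0658 and 0.0832). IL1RAP in the same cells was 13.2, 5.1 and 7.0 CPM in the controls and 21.3, 23.0 and 16.5 CPM in the asthma libraries, without overlap but also without passing (1.04 ± 0.45, adjusted p = 0.199). Groups failed to overlap for 30.3% of the genes tested in these cells. Endothelial IL33 had a log2 fold change of -0.77 ± 0.30 (adjusted p = 0.157). Within larger-vessel endothelial cells it was 0.097 ± 0.25 (adjusted p = 0.942) and within the ACKR1 cells 0.42 ± 0.31 (adjusted p = 0.837). The summed cells differed in make-up, with 124 control and 171 asthma larger-vessel cells, 27 and 307 capillary cells, and 7 and 336 SEMA3G cells. The part of this make-up in the summed endothelial values was not tested.

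IL17RB, the private chain of the IL-25 receptor, was scarce. Its 51 UMIs were 8, 3 and 8 in the controls and 14, 6 and 12 in the asthma libraries, which overlapped. Macrophages held 10, T and NK cells 9, stromal cells 8 and plasma cells 7. In the 117 plasma cells it was found in 6 (5.13%) at 7.36 ± 6.63 CPM (n = 5), and in the 1638 granulocytes and 1566 monocytes in none. Its partner IL17RA was seen in 1 of the 47 IL17RB-positive cells (2.13%), against 2.27% of cells without IL17RB.

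Across the comparisons of asthma with control, the members gave few calls. All retained cells together allowed 5 members to be tested and edgeR called none, with none at an unadjusted p under 0.05 and none by DESeq2, where 0.0839% of all genes were called by edgeR. In the 10 classes 14 member tests gave 1 call and 4 unadjusted p under 0.05. The background share was 2.05% in stromal cells, the class of the call, 0.0159% in B cells, 0.037% in mesothelial cells and 0.0404% in monocytes. It was 0% in T and NK, dendritic, epithelial and plasma cells, granulocytes and macrophages. In those 6 classes without a called gene, 69 to 720 genes had an unadjusted p under 0.05 and DESeq2 called 0 to 81. In the 14 sub-clusters 15 member tests gave no call by edgeR or DESeq2, with 1 unadjusted p under 0.05, beside 0.0622% of all gene tests called.

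The wider pathway was read from a list of 48 genes, of which 47 were matched, with IL2RG not analysed here. Over all cells 40 of them were tested and edgeR called none in either direction, with 5 at an unadjusted p under 0.05. Their median log2 fold change was -0.099, beside -0.015 for all genes. In the classes 185 tests gave no call and 15 unadjusted p under 0.05. DESeq2 made 7 calls over all cells and classes. They were CCL22 and IL1R1 (higher) and CMA1 and CTSG (lower, -1.11 and -1.89) over all cells, CISH (higher) and CMA1 (lower, -0.71) in T and NK cells, and CCL22 (higher) in dendritic cells. DESeq2 called 4.52% of all genes over all cells, 0.775% in T and NK cells and 0.2% in dendritic cells. Mesothelial cells, the class with the highest IL1R1 level, numbered 31, 46 and 48 in the controls and 266, 198 and 30 in the asthma libraries. Proliferating T and NK cells numbered 72, 105 and 311 in the controls and 45, 40 and 13 in the asthma libraries. The part of make-up in the calls over all cells and in T and NK cells was not tested. CCL22, a chemokine that draws type 2 helper T cells, had an edgeR log2 fold change of 2.86 ± 0.41 in dendritic cells (adjusted p = 0.160). It is a leading gene of the mature dendritic cells, which were 16 of 421 control and 18 of 114 asthma dendritic cells, and the part of this make-up in the class value was not tested. CISH, a feedback inhibitor of cytokine receptors, had 0.90 ± 0.12 in T and NK cells (adjusted p = 0.166).

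JAK1, the kinase bound to IL7R, was the 1 gene called of the 17 list genes tested in the summed endothelial cells, where 5.86% of all genes were called, so that a share near the background was called. It had a log2 fold change of 0.96 ± 0.18 (adjusted p = 0.0183). It was not called without control 1, control 3, asthma 10 or asthma 11 (adjusted p between 0.0640 and 0.0832). The summed cells differed in make-up between groups, with 27 control and 307 asthma capillary cells and 7 and 336 SEMA3G cells. The part of this make-up in the JAK1 value was not tested. The class with the highest JAK1 level was the granulocytes (501 ± 78.3 CPM). Among shared receptor chains and other ligands, IL1R1, the IL-1 receptor that also pairs with IL1RAP, was highest in mesothelial cells (271 ± 45.0 CPM) and IL7, the other ligand of IL7R, in B cells (37.2 ± 6.69 CPM). IL1B was highest in monocytes (2153 ± 1093 CPM) and SIGIRR, an inhibitory receptor of the family, in T and NK cells (224 ± 14.0 CPM).

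Of the downstream and feedback genes, NFKB1 was highest in dendritic cells (169 ± 49.1 CPM), TNFAIP3 in monocytes (272 ± 111 CPM) and CISH in macrophages (109 ± 23.2 CPM). CCL17, which shares a receptor with CCL22, was highest in macrophages (163 ± 120.5 CPM), and AREG, a repair factor of regulatory T cells and innate lymphoid cells, in dendritic cells (54.1 ± 34.998 CPM). The type 2 cytokines were scarce, with 107 UMIs of IL4, 52 of IL5, 86 of IL13 and 0 of IL9 in all cells. Of the proteases that can process IL-33, CTSS was highest in granulocytes (2249 ± 402 CPM) and CMA1, the mast cell chymase, in T and NK cells (79.8 ± 23.5 CPM). Mast cells, with at least 10 cells in 1 library, were not ranked for the list genes.

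Patterns like those of the 3 abundant members were sought over 153 sums of a library and a cell type, which share libraries and depth, among 9468 genes. Those closest to IL33 were IGFBP3 (r = 0.80), CLU (0.80), EVA1C (0.78), NYNRIN (0.77) and SEMA3F (0.77). For IL1RAP they were GCA (0.81), SLC31A2 (0.79), SOD2 (0.79), HAL (0.77) and PGD (0.77). For IL7R they were TNFRSF25 (0.79), TCF7 (0.73), GATA3 (0.72), GIMAP6 (0.71) and GIMAP8 (0.69). Among the members themselves r was 0.16 between IL33 and IL1RAP, -0.15 between IL33 and IL7R and -0.18 between IL1RAP and IL7R.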

How the data were processed

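The authors deposited, per library, a 10x matrix of whole UMI counts per gene and cell barcode, not normalized. The methods name Cell Ranger with the macFas6 genome, the processing notes give Cell Ranger 2.1.1 and the matrix headers 4.0.0. The study's cell limits were applied (over 500 and under 5000 detected genes, 500 UMIs or more, a mitochondrial share up to 25%). The study's own cell names were not used here.

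Cells were clustered with scanpy 1.11.5 (2000 variable genes, 10 principal components, Leiden resolution 0.8) with the 8 members left out of the variable genes, and named from at least 3 markers. Doublets were kept. The members, markers and lists were chosen with earlier results of these data known. Counts were summed per library and type and tested with edgeR 4.0.16 (TMM, filterByExpr, glmQLFTest, Benjamini-Hochberg over all genes), and called at adjusted p under 0.05 and absolute log2 fold change over 0.25. A type was tested with at least 10 cells in at least 2 libraries of each group. Libraries are separate animals. Named pathway genes are those called and the 2 with most UMIs per group of the list, and genes like a member are the 5 with the highest Pearson r among those of at least 5 CPM. CCL22, IL4, IL5, IL9 and IL13 were named after their values were seen. Alternatives were DESeq2 1.42.0, no count filter, other cell filters, Scrublet doublet removal, resolution 1.6, members among the variable genes, thinning and leaving out each library. The test was also run on simulated data with known changes.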

Additional observations from a re-analysis of the deposited data

Results flagged for a closer look

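IL7R was ordered in opposite ways by group in 2 types of cell. In stromal cells all 3 asthma libraries lay above the controls, and all 3 lay below them in the T cells led by IGFBP2, SOX4 and TCF7. The stromal minus T-cell difference in log2(CPM + 10) was 3.57 larger in asthma than in control libraries, with means of 0.17 in asthma and -3.41 in control. A permutation test of this difference says nothing further, because both orders that led to its choice fix its separation, so its p is not given. In edgeR the stromal change was called and the T-cell change was not (log2 fold change -1.001, adjusted p = 0.567). Groups failed to overlap for 31.7% of genes in stromal cells and 11.8% in these T cells, and of the 662 stromal IL7R UMIs 312 lay in capillary cells (27 control and 307 asthma cells) and 294 in SEMA3G cells (7 control and 336 asthma cells).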

How the results depend on the processing

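The stromal IL7R call held with DESeq2, without a count filter, at 10% mitochondrial UMIs, with doublets removed, at resolution 1.6 and with the members among the variable genes (log2 fold change 2.93 to 3.19), and its leave-one-out range was 2.51 to 3.50. In the summed endothelial cells that range was 1.97 to 3.15. The number of members called per class was 1 in the main analysis, 2 without a count filter and 0 to 1 with a library left out. It was 0 without the capillary and SEMA3G cells, where stromal IL7R was not tested. Per sub-cluster it was 0, and 1 without a filter. Pathway list calls over all cells, classes and sub-clusters, without the summed endothelial cells, were 0, against 7 with DESeq2, 16 without a filter and 0 to 1 with a library left out. The member calls added without a filter were IL7R in dendritic cells (1.504, adjusted p = 0.000183) and in the TCF7 T cells (-1.15, adjusted p = 0.0113).

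Directions turned for IL33 in stromal cells without the capillary and SEMA3G cells (0.084), for IL33 over all cells (leave-one-out -1.20 to 0.71), and for IL7R over all cells (-0.38 to 0.037), in T and NK cells (-0.28 to 0.59, lowest without asthma 11) and in CD4 T cells (-0.22 to 0.090). The cause was not tested. Genes called over all cells were 12, against 647 with DESeq2, 45 without a filter, 7 from 200 genes per cell and 0 to 11 with a library left out. Stromal calls were 195, against 473, 631, 129 at 10% mitochondrial UMIs and 3 to 391, and summed endothelial calls 453, against 995 without a filter and 35 to 433.

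Of 203 class levels under the other cell filters and clusterings 202 stayed within 1 SD, the exception being IL7R in monocytes at resolution 1.6 (15.9 CPM). The class with the highest level, mast cells not ranked, was kept for all 7 members with doublets removed or at resolution 1.6, for 5 at 10% mitochondrial UMIs and for 6 after thinning. For IL1RL1 that class was the granulocytes, on 3 UMIs, and for IL25 the epithelial cells, on 4 UMIs. Granulocytes against T and NK cells had p = 0.8125 for IL1RL1 in the exact sign-flip test. Sub-clusters such as regulatory T cells were not part of this ranking. A missed threshold does not show that values did not differ. Low counts limit TSLP, IL25, IL1RL1 and IL17RB. No paired analysis was possible because the groups share no replicate numbers. Scrublet's own threshold marked 10 cells, so 793 top-scored cells were removed by rate.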

Other observations

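The barcodes that failed the cell filter also held member UMIs. They carried 2782 of the IL33 UMIs (27.5% of all of them), 2113 of IL1RAP (26.7%) and 1734 of IL7R (13.7%), and 25 of TSLP, 14 of IL17RB, 8 of IL1RL1 and 6 of IL25. IL33 in those barcodes was 111, 17.4 and 203 CPM in the controls and 20.1, 73.8 and 25.6 CPM in the asthma libraries, with overlapping groups, and control 3 was the highest library here as in the retained cells.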
